A study of Mus musculus with 12 samples.

Results

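The liver transcriptome of Mettl5 knockout (KO) mice was compared with that of wild-type (WT) littermates in the input RNA, that is, the portion of each liver lysate that was kept for RNA sequencing before ribosome footprints were prepared. The members were the 3 KO and 3 WT input libraries, 6 of the 12 libraries of the series, and every annotated gene that remained after the rows of 18S rRNA, the mitochondrial rRNAs mt-Rnr1 and mt-Rnr2, and Lars2 were removed. Of 55487 annotated genes, 23937 had a count in at least 1 of these libraries and 9883 had enough counts to be tested, 676 of which are absent from the normalized table of 10607 genes that the authors used for translation efficiency.

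METTL5 is the methyltransferase that places N6-methyladenosine on an adenosine of 18S rRNA, and it is stabilized by its partner TRMT112. Hepatocytes, the main cells of the liver, make most plasma proteins, complement and cholesterol, and in male mice they also secrete the major urinary proteins (Mups), small carriers of pheromones whose genes follow the male pattern of growth hormone release. Cholesterol synthesis runs from acetyl-CoA through mevalonate and squalene, and its enzymes are induced together by the transcription factor SREBP2.

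The KO mice carried a whole-body deletion of exon 2 of Mettl5, made by crossing mice with a floxed allele to mice in which the CMV promoter drives Cre in all tissues (strain B6.C-Tg(CMV-cre)1Cgn/J). The floxed allele was built in C57bl/6 x 129S6 F1 hybrid embryonic stem cells and the line was then backcrossed to B6. No mouse received a drug in life, but every liver, KO or WT, was lysed in buffer with cycloheximide, which holds ribosomes on mRNA, and nuclei were pelleted before the input was taken, so the input is mostly cytoplasmic RNA of a whole tissue. The labels name each WT mouse as the littermate of the KO mouse of the same number, which gave 3 litters with a pair of mice each. Sex and age are not in the labels, and the study's methods name both sexes and ages from 4 weeks to 6 months for its mice as a whole. The Y-linked gene Ddx3y was at 123 to 140 CPM, a gene's counts scaled to a common library size, and Uty, Kdm5d and Eif2s3y were also counted in all 6 libraries, whereas Xist and Tsix had 0 counts in each, which allows at most 3 counts per library.

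Library totals ran from 8326325 to 11825643 read pairs, of which 18S rRNA took 45.8% to 63.8%, and 2077408 to 4745069 counts were left after the 4 rows were removed, with the most in KO mouse 1. Further rRNA-like rows took 6.64% of these counts in KO mouse 1 and 10.8% to 14.8% in the other libraries. The hepatocyte identity of the tissue was checked with albumin (Alb), which was at 47141 to 68748 CPM in WT and 48363 to 56929 CPM in KO, and 0 of 10 hepatocyte markers were higher and 1 was lower in KO in all 3 litters. Markers of neutrophils were at or near 0, with a summed level of at most 0.516 CPM in WT and 2.26 CPM in KO, and T and NK cell markers summed to 3.61 to 7.03 CPM in WT and 3.61 to 6.04 CPM in KO. In RNA from whole liver, fewer cells of a type and less RNA per cell cannot be told apart.

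Mettl5 itself was at 10.8, 7.92 and 4.44 CPM in WT mice 1 to 3 and at 2.50, 2.64 and 2.26 CPM in their KO littermates. All 3 KO livers were below all 3 WT livers, but these levels rested on 12 to 21 counts in WT and 5 to 13 counts in KO. The log2 fold change of KO against WT was -1.64 ± 0.47 (SE from the fit to 3 litters), with an adjusted p of 0.695 by edgeR's quasi-likelihood test with litter as a block. For edgeR, here and below, the SE was derived from the test statistic and is not the spread between litters. The gene lies at chr2:69871198-69885615 (mm10, minus strand), and its counts cover all exons, not exon 2 alone. Its neighbour Ssb, which overlaps the end of Mettl5 by 649 bases on the other strand and codes for the La RNA-binding protein, had a log2 fold change of 0.019. Among the 65 tested genes within 10 Mb of Mettl5, 10 were lower and 8 were higher in KO in all 3 litters, with a median log2 fold change of -0.049. Trmt112 was at 13.9, 7.04 and 12.9 CPM in WT and 9.42, 5.66 and 4.51 CPM in KO, a log2 fold change of -0.77 ± 0.34 that did not pass the test (adjusted p = 0.998).

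Across the transcriptome, 2 of 9883 genes fell in KO at an adjusted p under 0.05 (0.0202%) and 0 rose (0.0%), while 427 genes had an unadjusted p under 0.05, 240 of them higher and 187 lower in KO. DESeq2 called 3 genes with the same block, and without the litter block edgeR called 0, with 341 genes at an unadjusted p under 0.05 and a lowest adjusted p of 0.366. The litters were therefore also read one by one. A gene was lower in KO in all 3 litters in 1195 cases (12.1%) and higher in all 3 in 1234 cases (12.5%), and in 845 genes (8.55%) the 3 KO levels did not overlap the 3 WT levels. These shares are the background against which every gene group below is set. In an unpaired comparison of 3 mice with 3 mice, an exact two-sided permutation test of 1 gene cannot go below p = 0.1. With swaps only within litters the limit is higher still, so no such p is given.

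The first of the called genes was Mup20, the Mup also called darcin, a male pheromone, at chr4:62050234-62054158 (mm10, minus strand). It was at 759, 871 and 991 CPM in WT and at 250, 300 and 506 CPM in KO. Every KO liver was below every WT liver, and the litter differences on the log2 scale were -1.60, -1.54 and -0.97. Mup20 fell 2.59-fold, a log2 fold change of -1.37 ± 0.16 (SE) with an adjusted p of 0.00252 by edgeR, and it kept an adjusted p under 0.05 when any of the litters was left out.

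The second was Mbd1, which codes for a protein that binds methylated CpG. Its levels were 96.4, 239 and 103 CPM in WT and 53, 70.2 and 33.4 CPM in KO, without overlap, although WT mouse 2 stood 2.48-fold above WT mouse 1. Its litter differences were -0.86, -1.76 and -1.61, and the log2 fold change was -1.41 ± 0.18 with an adjusted p of 0.0171 by edgeR. Without litter 3 the log2 fold change was -1.32 and the adjusted p was 0.401, so the size of the difference was similar but the call was lost. Neither gene was called without the litter block, with adjusted p values of 0.802 for Mup20 and 0.999 for Mbd1.

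Ribosome footprints, the mRNA pieces that ribosomes protect, were sequenced from the same 6 mice, so they are a second measure of these livers and not a second set of animals. Footprint values, as normalized by the authors, were tested with limma with the same litter block, in which 218 of 9280 genes fell (2.35%) and 139 rose (1.5%). The direction of these calls depended on the test, as edgeR on the whole footprint reads gave 178 higher and 153 lower, and without the block limma called 7 higher and 16 lower. Footprint fold changes also moved with base composition. Across 9269 genes their Spearman correlation with the GC content of the longest coding transcript was 0.359, against 0.0482 across 9471 genes for input, in each case over genes measured in the same libraries. The part of GC content in the footprint values given below was not tested. Mettl5 footprints fell by 2.64 on the log2 scale (limma, adjusted p = 7.76e-05). Mup20 footprints were at 1011, 1721 and 1672 in WT and 359, 346 and 517 in KO, without overlap, and fell by 1.83 on the log2 scale (limma, adjusted p = 3.35e-06). Mbd1 footprints were at 243, 404 and 225 in WT and 117, 187 and 145 in KO, and fell by 0.93 on the log2 scale (limma, adjusted p = 0.00208).

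Another gene, Cyp26b1, was called by DESeq2 (adjusted p = 7.87e-07) but not by the main edgeR fit, and was named after its values were seen. It codes for a cytochrome P450 that breaks down retinoic acid. Cyp26b1 was at 112, 18.5 and 42.2 CPM in WT and at 4.8, 1.89 and 12.2 CPM in KO. The groups did not overlap and each KO liver was below its littermate, with litter differences of -4.41, -2.99 and -1.75 on the log2 scale, but the WT livers themselves differed widely. In the main edgeR fit the log2 fold change was -3.26 ± 0.75 with an adjusted p of 0.998. The edgeR fit without a count filter gave a log2 fold change of -3.22 (adjusted p = 3.08e-10). Without litter 1 it was -2.22 (adjusted p = 0.0249), without litter 2 it was -3.26 (adjusted p = 1.00), and without litter 3 it was -4.23 (adjusted p = 0.00879). Litter 3 had the smallest difference, so leaving it out favoured the call, which adds no support. Cyp26b1 footprints followed the same order, at 219, 41.8 and 70.1 in WT and 4.17, 5.53 and 18.2 in KO, with a log2 fold change of -3.34 ± 0.87 (limma, adjusted p = 0.206). Cyp26a1, a related enzyme that was also named after its values were seen, was at 77.4, 6.60 and 8.50 CPM in WT and at 54.2, 6.79 and 3.61 CPM in KO, so litter 1 was high in both genotypes.

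**Figure D1:**
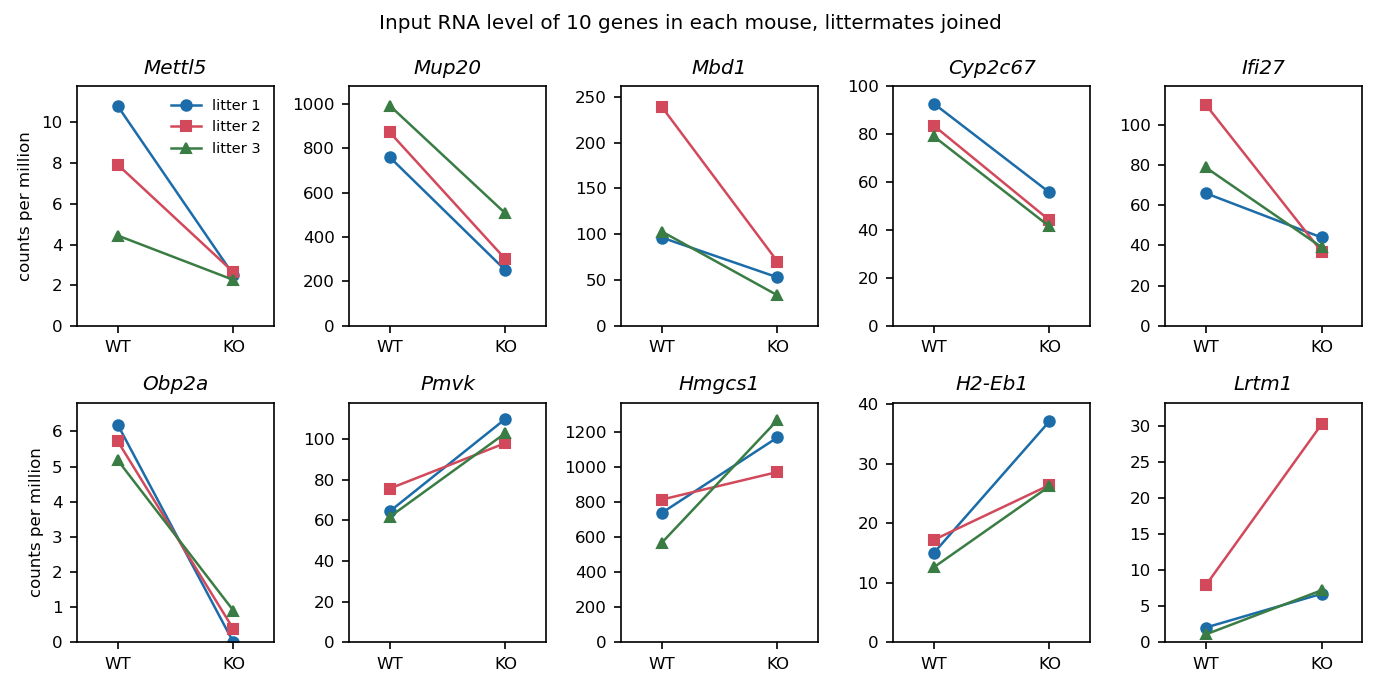
Input levels in CPM (vertical axes) of 10 genes in each of the 6 mice, with a line joining the WT and KO littermates of each litter. The 3 lines of Mup20 run from 759, 871 and 991 down to 250, 300 and 506, whereas those of Hmgcs1 run from 738, 814 and 568 up to 1168, 971 and 1267.

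Mup genes were lower in the KO livers as a family. Of 22 Mup genes, 14 had enough counts to be tested and 8 did not (Mup2, Mup5, Mup8, Mup10, Mup15, Mup18, Mup19 and Mup22). Of the 14, 11 were lower in KO in all 3 litters and 0 were higher, against 12.1% and 12.5% of all genes, and the median log2 fold change was -0.89 against -0.0031 over all genes tested. The median difference was -1.19 in litter 1, -0.85 in litter 2 and -0.40 in litter 3. Mup20 was the only Mup that passed the test in input. The counting used uniquely mapped reads, and most Mups are near-identical copies of each other, so the value of a given Mup is uncertain and the summed level is the firmer quantity. Summed over the family, the level was 7044, 7120 and 7426 CPM in WT and 4644, 4216 and 5784 CPM in KO, without overlap.

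Mup3 carried most of this sum, at 4690, 4667 and 4607 CPM in WT, which is a spread of 1.02-fold, and at 3802, 3034 and 3795 CPM in KO. Its log2 fold change was -0.40 ± 0.16, with an adjusted p of 0.998. Mup16 was at 23.7, 17.6 and 34.0 CPM in WT and 5.77, 8.3 and 12.2 CPM in KO, a log2 fold change of -1.55 ± 0.26 that just missed the threshold (adjusted p = 0.0800). Mup14 was at 341, 367 and 447 CPM in WT and 174, 190 and 402 CPM in KO, where KO mouse 3 lay within the WT range. Mup7 showed the same order more strongly, from 554, 508 and 607 CPM in WT to 97.2, 229 and 509 CPM in KO. Mup1 had a log2 fold change of -1.50 and Mup17 one of -1.45, and Mup4, Mup9 and Mup11 did not keep their sign over the litters. In footprints 12 of 14 Mups fell and 0 rose, against 2.35% and 1.5% of all genes tested. The log2 fold changes there were -2.04 for Mup16, -2.0 for Mup1, -1.54 for Mup7, -1.53 for Mup14 and -0.65 for Mup3. The median GC content of the tested Mups was 41.9%, against 49.8% over all genes. Mup1, Mup3, Mup4, Mup7, Mup9, Mup11 and Mup17 were named after their values were seen.

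Genes that differ between male and female liver were counted with and without the Mups. Of 44 such genes, among which Mup20 is the only Mup, 24 were tested, and 10 were lower and 1 was higher in KO in all 3 litters, with a median log2 fold change of -0.33. Without Mup20, 9 of 23 were lower and 1 was higher, and the median was -0.30. Of all 24, 18 had a log2 fold change below 0 and 6 above 0. Of the 11 with an unadjusted p under 0.05 by edgeR, 9 were lower and 2 were higher. The list was not split by which sex has the higher level, so these counts do not describe a male or a female pattern. The members named below were all lower in KO. The litters did not lean equally, since the median difference of the 23 genes without Mup20 was -0.29 in litter 1, -0.45 in litter 2 and 0.049 in litter 3, where 11 of them were lower. Cyp4a12a, a male-biased fatty acid hydroxylase, was at 267, 435 and 253 CPM in WT and 125, 339 and 146 CPM in KO, so each KO liver was below its littermate although the groups overlapped. Its log2 fold change was -0.75 ± 0.16 (adjusted p = 0.211), and its footprints fell by 0.94 (limma, adjusted p = 0.000228). Cyp2d9, a male-biased steroid hydroxylase, was at 494, 610 and 625 CPM in WT and 403, 422 and 484 CPM in KO, a log2 fold change of -0.40 in input, and its footprints fell by 0.49 (limma, adjusted p = 0.0296). Obp2a, an odorant-binding lipocalin, had 12, 13 and 14 counts in WT and 0, 1 and 2 in KO. Against a floor of 3 counts per library its level was at least 5.58-fold lower, with an adjusted p of 0.211.

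Some genes were lower in KO in litters 1 and 2 and little different or higher in litter 3. Cyp7b1, an oxysterol hydroxylase of bile acid synthesis, was at 294, 331 and 371 CPM in WT and at 106, 149 and 403 CPM in KO. Its log2 fold change was -0.84 in input (adjusted p = 0.998), and its footprints fell by 1.10 (limma, adjusted p = 0.000255). Selenbp2, a selenium-binding protein of liver, was at 212, 279 and 496 CPM in WT and 62.8, 78.1 and 447 CPM in KO, and the serpin Serpina1e was at 4060, 4060 and 4306 CPM in WT and 2934, 1611 and 4658 CPM in KO. Both were named after their values were seen. With litter 3 left out, edgeR called 4 genes, which were Mup20, Cyp26b1, Selenbp2 and the RNase P RNA-like copy Rprl3 described below. Litter 3 is where each of these 4 genes differed least. Leaving it out therefore favoured their calls, which add no support for a difference by genotype.

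**Figure D2:**
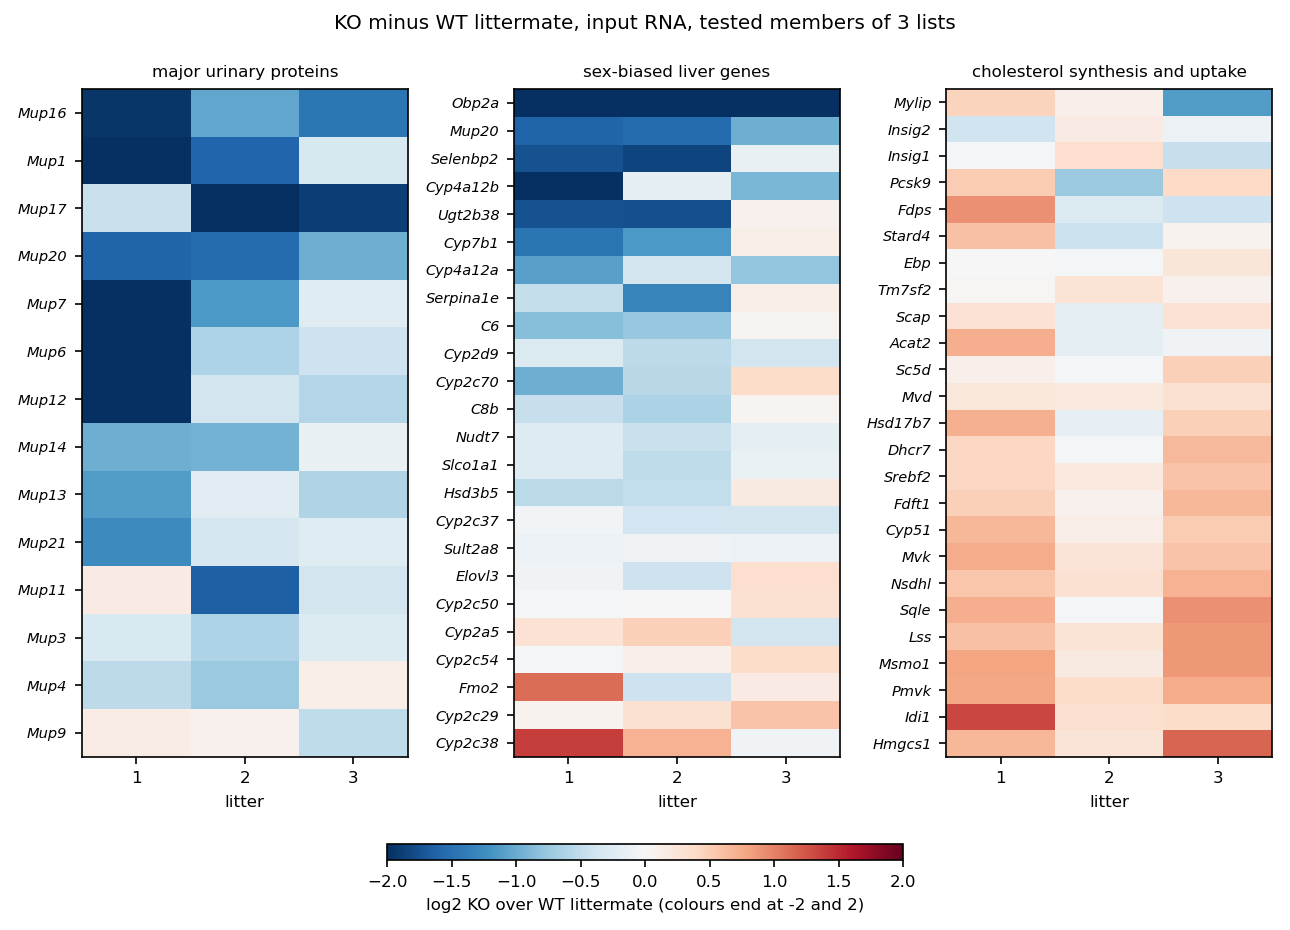
Difference between the KO mouse and its WT littermate in log2 CPM (colour, ending at -2 and 2) for tested members (rows) of the Mup, sex-biased and cholesterol lists in the 3 litters (columns). Most Mup rows are below 0 in all columns, the sex-biased rows have a median of -0.0072 in litter 3, and most cholesterol rows are above 0 in litters 1 and 3 (medians 0.50 and 0.47 over all 28 tested) with smaller values in litter 2 (median 0.12).

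Among single genes lower in KO in all 3 litters, the smallest p values after Mup20, Mbd1 and Mup16 belonged to Cyp2c67 and Ifi27. Cyp2c67, a member of the Cyp2c family of drug and fatty acid oxidizing P450s, was at 92.8, 83.6 and 79.1 CPM in WT and 55.7, 44.1 and 41.5 CPM in KO. The groups were tight and did not overlap. The log2 fold change was -0.86 ± 0.15 (adjusted p = 0.0856), and the footprints fell by 0.92 (limma, adjusted p = 0.000596). Ifi27, an interferon-induced protein of the mitochondrial membrane, was at 66.0, 110 and 78.8 CPM in WT and 44, 37.0 and 39.2 CPM in KO, with a log2 fold change of -1.05 ± 0.19 (adjusted p = 0.123), and its footprints fell by 1.08 (limma, adjusted p = 0.000286). Gstp1, a glutathione S-transferase, was at 245, 282 and 380 CPM in WT and 150, 161 and 277 CPM in KO. Its footprints fell by 0.99 (limma, adjusted p = 0.0200). Tsku, a secreted proteoglycan, went from 29.4, 92.4 and 47.3 CPM to 19.4, 46.8 and 21.6 CPM, and each KO liver was below its littermate. Apol9a, an apolipoprotein L, was at 13.9, 16.7 and 21.1 CPM in WT and at 7.88, 6.41 and 6.31 CPM in KO, a log2 fold change of -1.28. Plekhb1, a membrane protein with a pleckstrin homology domain, had a log2 fold change of -0.96, and Etfbkmt, a mitochondrial lysine methyltransferase, one of -0.94.

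Enzymes of cholesterol synthesis leaned the other way. Of 28 tested genes of cholesterol synthesis and uptake, 14 were higher in KO in all 3 litters and 0 were lower, against 12.5% and 12.1% of all genes, and the median log2 fold change was 0.32. The median difference was 0.50 in litter 1, 0.12 in litter 2 and 0.47 in litter 3. Summed over the list, the level was 4825, 5540 and 4602 CPM in WT and 6223, 6087 and 6406 CPM in KO, without overlap. No gene of the list passed the test in input. In footprints 4 of 26 rose and 0 fell, against 1.5% and 2.35% of all genes tested.

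The 4 genes of the list with the smallest p values act along the whole route. Hmgcs1, which makes the HMG-CoA from which mevalonate is formed, was at 738, 814 and 568 CPM in WT and 1168, 971 and 1267 CPM in KO. Its litter differences were 0.66, 0.25 and 1.16, and the log2 fold change was 0.69 ± 0.17 (adjusted p = 0.458). The footprint log2 fold change of Hmgcs1 was 0.39 and was not called (limma, adjusted p = 0.123). Pmvk, the kinase that acts on phosphomevalonate, was at 64.5, 75.7 and 61.8 CPM in WT and 110, 98.1 and 103 CPM in KO. The tight groups did not overlap, with a log2 fold change of 0.63 ± 0.15 (adjusted p = 0.348), and Pmvk footprints rose by 0.64 (limma, adjusted p = 0.0159). Lss, which closes squalene epoxide into lanosterol, was at 89.2, 93.3 and 91.0 CPM in WT and 134, 113 and 167 CPM in KO, and its footprints rose by 0.60 (limma, adjusted p = 0.0195). Msmo1, a sterol demethylase later in the route, was at 172, 291 and 190 CPM in WT and 298, 330 and 348 CPM in KO, a log2 fold change of 0.62 ± 0.16 in input, while its footprint log2 fold change was -0.062 (limma, adjusted p = 0.831).

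The promoters of Hmgcs1, Msmo1 and Lss are shown because these members were higher in all 3 litters and the list is known as a set with shared promoter elements. They run from 250 bases before to 50 bases after the start of the gene, from RefSeq on GRCm38.p6, at chr13:119690101-119690400 (plus strand) for Hmgcs1, chr8:64733529-64733828 (minus strand) for Msmo1 and chr10:76531355-76531654 (plus strand) for Lss. Capitals mark matches of TCACNCCA, letters of a sterol regulatory element, and of CCAAT, the box bound by NF-Y, both searched on either strand, so that a match on the other strand reads TGGNGTGA or ATTGG. The motifs share the letters CCA and could overlap, but did not in these 3 promoters.
Hmgcs1: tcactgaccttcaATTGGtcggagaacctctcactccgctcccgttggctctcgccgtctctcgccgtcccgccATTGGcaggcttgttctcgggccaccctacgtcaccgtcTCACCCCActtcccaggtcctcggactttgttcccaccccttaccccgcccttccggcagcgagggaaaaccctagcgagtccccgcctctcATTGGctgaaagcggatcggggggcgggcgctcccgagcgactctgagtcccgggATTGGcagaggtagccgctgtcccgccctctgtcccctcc
Msmo1: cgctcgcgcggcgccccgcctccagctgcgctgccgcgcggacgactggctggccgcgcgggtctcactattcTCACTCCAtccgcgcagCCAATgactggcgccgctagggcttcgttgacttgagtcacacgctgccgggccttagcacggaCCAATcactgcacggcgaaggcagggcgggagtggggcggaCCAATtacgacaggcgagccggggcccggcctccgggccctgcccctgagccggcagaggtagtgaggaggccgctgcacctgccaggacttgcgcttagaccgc
Lss: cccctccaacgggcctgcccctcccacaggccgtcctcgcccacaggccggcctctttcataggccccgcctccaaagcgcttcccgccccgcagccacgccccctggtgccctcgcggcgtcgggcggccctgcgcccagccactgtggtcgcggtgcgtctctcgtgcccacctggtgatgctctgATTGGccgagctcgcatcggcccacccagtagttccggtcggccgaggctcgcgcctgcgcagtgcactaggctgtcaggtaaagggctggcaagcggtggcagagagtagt
Hmgcs1 had 1 match of TCACNCCA and 4 of CCAAT, Msmo1 had 1 and 3, and Lss had 0 and 1. CCAAT was found in 18 of the 20 tested cholesterol genes with a listed promoter (90.0%), against 41.1% of the 27025 genes with a promoter and 42.5% of the 7662 tested genes with one. TCACNCCA was found in 3 of the 20 (15.0%), against 4.97% and 4.55%. A match of letters is not a site in use.

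Other genes of the list, named after their values were seen, gave smaller differences. Mvk, mevalonate kinase, had a log2 fold change of 0.52 in input and 0.77 in footprints, where it rose (limma, adjusted p = 0.0234). The transcription factor gene Srebf2 was at 60.9, 65.1 and 54.4 CPM in WT and 81.3, 75.1 and 81.2 CPM in KO, without overlap (log2 fold change of 0.40, adjusted p = 0.998).

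Fatty acid synthesis genes showed the lean in fewer members, with 9 of 32 higher and 1 lower in all 3 litters and a median log2 fold change of 0.084. Acsl3, which activates long-chain fatty acids, was at 18, 16.7 and 22.2 CPM in WT and 37.9, 33.6 and 31.1 CPM in KO, without overlap (log2 fold change of 0.85). Scd1, the desaturase that makes oleate, was at 6988, 8477 and 3846 CPM in WT and 10324, 11708 and 6274 CPM in KO, so the groups overlapped but each KO liver was above its littermate, and its footprints rose by 0.52 (limma, adjusted p = 0.0223). Acss2, acetyl-CoA synthetase, was at 276, 246 and 136 CPM in WT and 344, 297 and 355 CPM in KO, and its footprints rose by 0.58 (limma, adjusted p = 0.0223). The footprint log2 fold change of Acsl3 was 0.19 (limma, adjusted p = 0.541) and that of Elovl6, a fatty acid elongase, was -0.29 (limma, adjusted p = 0.291). In footprints 2 of 32 genes of the list rose and 1 fell, against 1.5% and 2.35% of all genes tested.

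**Figure D3:**
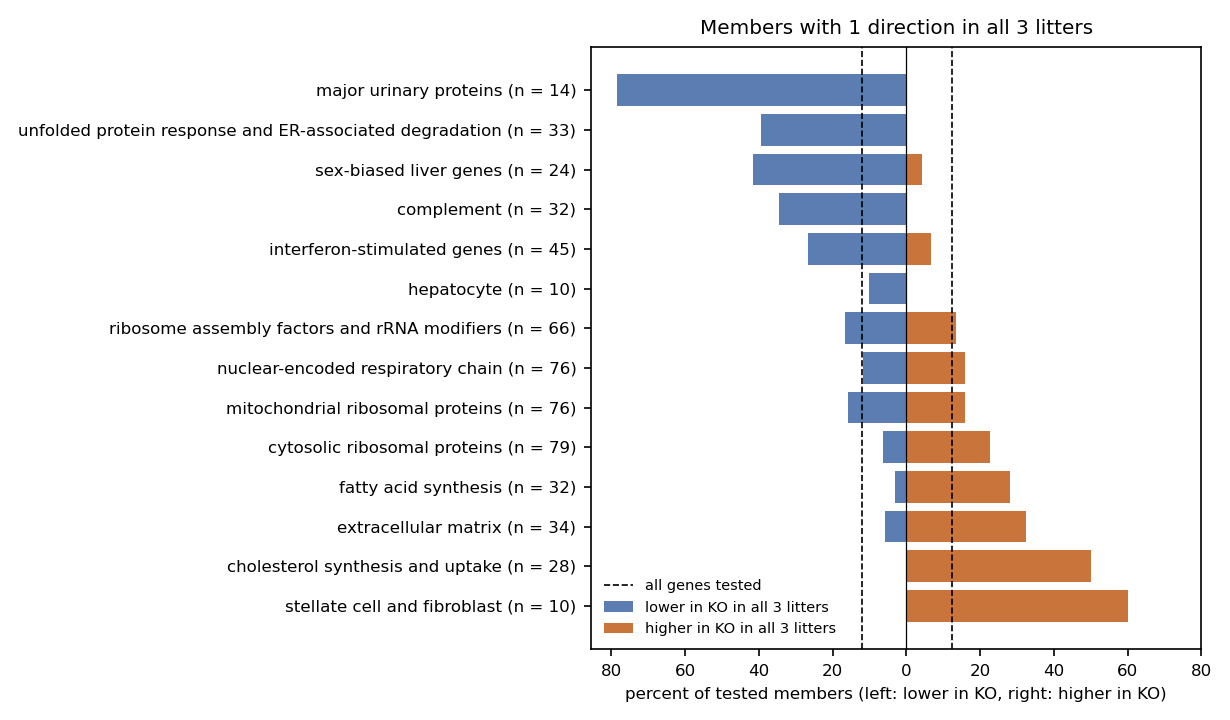
Percent of tested members (horizontal axis) that were lower or higher in KO in all 3 litters, for 14 gene lists, with dashed lines at the shares of all genes tested (12.1% lower and 12.5% higher). The Mups reach 78.6% lower, the cholesterol list 50.0% higher and the complement list 34.4% lower.

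Genes of the unfolded protein response and of endoplasmic reticulum (ER) quality control leaned lower by a small amount. Of 33 tested, 13 were lower and 0 were higher in KO in all 3 litters, against 12.1% and 12.5% of all genes. The median log2 fold change was -0.16, with litter medians of -0.24, -0.10 and -0.15. Xbp1, a transcription factor of this response, was at 197, 206 and 154 CPM in WT and 170, 123 and 132 CPM in KO, each below its littermate, a log2 fold change of -0.39 ± 0.14 (adjusted p = 0.998) in input, and its footprints fell by 0.59 (limma, adjusted p = 0.0197). Edem2 and Herpud1, both of which serve the disposal of misfolded proteins, had log2 fold changes of -0.43 and -0.31, and the chaperone Dnajb11 one of -0.33. Footprint log2 fold changes of Edem2, Herpud1 and Dnajb11 were -0.30, -0.28 and -0.24, none of them called (limma, adjusted p = 0.257, 0.222 and 0.36). Hspa5, the main ER chaperone, named after its values were seen, was at 1267, 1290 and 1234 CPM in WT and 937, 1221 and 1111 CPM in KO. These KO levels lay below every WT level, by a log2 fold change of -0.22. In footprints 3 of 33 genes of the list fell and 1 rose, against 2.35% and 1.5% of all genes tested.

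The complement list, proteins of hepatocytes and plasma, had 11 of 32 members lower and 0 higher in KO in all 3 litters, against 12.1% and 12.5% of all genes. The median log2 fold change was -0.13, from litter medians of -0.15, -0.26 and 0.0076. C9, which forms the pore of the membrane attack complex, was at 643, 852 and 892 CPM in WT and 493, 616 and 741 CPM in KO, each below its littermate, and its footprints fell by 0.73 (limma, adjusted p = 0.00584). C6, another part of that complex, was at 398, 303 and 346 CPM in WT and 220, 178 and 358 CPM in KO. KO mouse 3 lay above its littermate, and its footprints fell by 0.63 (limma, adjusted p = 0.00679). Cd59a, which shields cells from the complex, had a log2 fold change of -0.73 in input, and its footprints fell by 0.69 (limma, adjusted p = 0.0247). In footprints 9 of 30 complement genes fell and 1 rose, against 2.35% and 1.5% of all genes tested.

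Of 45 tested interferon-stimulated genes, 12 were lower and 3 were higher in all 3 litters, against 12.1% and 12.5% of all genes. The median log2 fold change was -0.17. The litter medians were -0.036, -0.27 and -0.18, and in litter 1 as many as 22 of the 45 were higher. Bst2, an antiviral membrane protein, was at 121, 106 and 110 CPM in WT and 98.2, 73.6 and 89.3 CPM in KO, without overlap. Rsad2, the antiviral protein viperin, had a log2 fold change of -0.96 and Irf7, a transcription factor of the response, one of -0.54. Footprint log2 fold changes of Bst2, Rsad2 and Irf7 were -0.43, -0.30 and -0.50, none of them called (limma, adjusted p = 0.0773, 0.631 and 0.308). In footprints 6 of 54 genes of the list fell, Ifi27 among them, and 1 rose, against 2.35% and 1.5% of all genes tested.

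MHC class II genes, which present antigens to helper T cells, were a small group added to the lists after Cd74 and H2-Eb1 were seen among the named genes, so their count is no independent support. Of 11 class II genes 4 were tested, and all 4 were higher in KO in all 3 litters. Cd74, the invariant chain, was at 105, 99.0 and 65.1 CPM in WT and 152, 137 and 124 CPM in KO, and its footprints rose by 0.63 (limma, adjusted p = 0.00930). H2-Eb1 was at 15.0, 17.2 and 12.6 CPM in WT and 37.1, 26.4 and 26.2 CPM in KO, a log2 fold change of 1.00 ± 0.23 (adjusted p = 0.325), and its footprints rose by 0.82 (limma, adjusted p = 0.00984). H2-Ab1 was at 23.2, 27.3 and 32.2 CPM in WT and 54.6, 38.9 and 40.6 CPM in KO, and its footprints rose by 0.84 (limma, adjusted p = 0.0115). H2-Aa, at 41.3, 20.7 and 19.6 CPM in WT and 46.5, 35.1 and 33.8 CPM in KO, was the only one of the 4 whose groups overlapped. Summed class II levels were 137 to 192 CPM in WT and 231 to 306 CPM in KO.

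Cells that carry class II were looked for by their markers. Of 10 tested Kupffer cell and macrophage markers, 1 was higher and 0 were lower in all 3 litters, and the whole list summed to 406 to 578 CPM in WT and 372 to 548 CPM in KO. The B and plasma cell markers summed to 70.6 to 120 CPM in WT and 135 to 165 CPM in KO, but that list holds Cd74. Without Cd74 they summed to 14.4, 3.96 and 5.55 CPM in WT and 12.1, 9.81 and 11.3 CPM in KO. Ighm, the immunoglobulin heavy chain and the only other member tested, was at 9.8, 2.2 and 2.96 CPM in WT and 7.69, 6.04 and 7.22 CPM in KO, and was higher in litters 2 and 3 (log2 fold change of 0.59, adjusted p = 0.998). The list's defining members Cd79a, Cd79b and Ms4a1 had at most 3 counts in any library, and Iglc2 and Mzb1 had 0 in all 6. The part of these cells in the class II levels was not tested. Of 12 tested MHC class I genes, 1 was higher and 0 were lower in all 3 litters, with a median log2 fold change of 0.052.

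Extracellular matrix genes had 11 of 34 members higher and 2 lower in all 3 litters, against 12.5% and 12.1% of all genes. Their median log2 fold change was 0.24, with litter medians of 0.22, 0.081 and 0.36. In litters 1 to 3, 12, 13 and 8 of the 34 were lower. Col14a1, a collagen that binds to fibrils, was at 44.9, 58.5 and 59.2 CPM in WT and 82.8, 78.8 and 64.9 CPM in KO, without overlap, and its footprints rose by 0.76 (limma, adjusted p = 0.00368). Col5a1 and Col15a1, other collagens, had log2 fold changes of 0.95 and 0.94, and Timp2, an inhibitor of matrix proteases, one of 0.78, each at under 20 CPM in every library. Col1a1 and Col3a1, the chains of the main fibrillar collagens, had log2 fold changes of 0.72 and 0.48 in input and rose by 0.97 and 0.61 in footprints (limma, adjusted p = 0.0278 for each). They were named after their values were seen. In footprints 12 of 42 matrix genes rose and 0 fell, against 1.5% and 2.35% of all genes tested. The median GC content of the matrix genes tested in input was 54.4%.

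Markers of stellate cells and fibroblasts, the cells that make most liver matrix, moved with these genes. Of 10 tested markers, 6 were higher and 0 were lower in all 3 litters, against 12.5% and 12.1% of all genes. The summed level of the markers was 378 to 456 CPM in WT and 486 to 528 CPM in KO. Reln, a glycoprotein secreted by stellate cells, was at 113, 137 and 116 CPM in WT and 175, 174 and 152 CPM in KO, without overlap (log2 fold change of 0.45 ± 0.13, adjusted p = 0.764). Lrat, which stores retinol as its ester, had a log2 fold change of -0.19 and did not keep its sign, and Des and Acta2, with 0 to 16 counts, were too low to be tested. The part of stellate cells in the matrix levels was not tested.

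Cytosolic ribosomal protein genes had 79 tested members, 37 of them outside the normalized table, with 18 higher and 5 lower in all 3 litters. Their median log2 fold change was 0.11, with litter medians of 0.27, 0.14 and -0.10, so litter 3 leaned the other way. Rps16, a protein of the small subunit, was at 32.0, 33.4 and 35.9 CPM in WT and 48.2, 43.4 and 49.6 CPM in KO, without overlap (log2 fold change of 0.48). Many of these genes have processed copies, and reads that match a copy equally well were not counted. The 66 ribosome assembly factors and rRNA modifiers tested had 9 higher and 11 lower in all 3 litters, and the 20 writers, readers and erasers of N6-methyladenosine had 3 higher and 6 lower.

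Of the 676 tested genes that the normalized table does not hold, 279 are protein-coding, 78 are processed pseudogenes, 58 are lincRNAs and 21 are snoRNAs. As a whole they showed no more lean than other genes, with 60 higher (8.88%) and 62 lower (9.17%) in all 3 litters and a median log2 fold change of -0.015. Their litter medians were -0.11, -0.11 and 0.26, against 0.015, 0.0055 and -0.017 for genes in that table. The group was thus shifted in opposite directions by litter, which lowers the share that leans in all 3. Rpph1, the RNA of RNase P, which trims the leaders of tRNAs, was at 576, 483 and 675 CPM in WT and 853, 635 and 1100 CPM in KO. Each KO liver was above its littermate, with a log2 fold change of 0.56 ± 0.14 (adjusted p = 0.479). Snord118, the U8 snoRNA that serves the processing of large-subunit rRNA, was at 25.8, 34.3 and 21.8 CPM in WT and at 13.1, 12.8 and 15.8 CPM in KO, without overlap (log2 fold change of -0.96 ± 0.24, adjusted p = 0.429). Scd3, a desaturase near Scd1, was at 1.55, 3.52 and 1.48 CPM in WT and 4.61, 5.28 and 4.96 CPM in KO, and Hoxc12, a homeobox gene, had a log2 fold change of -0.57.

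The 14 spliceosomal and other small nuclear RNAs (snRNAs) tested had 4 members lower (28.6%) and 0 higher in all 3 litters, and all 14 had a log2 fold change below 0, with a median of -0.51. The litter medians were -1.04, -0.96 and 0.38, so the typical member was not lower in litter 3. The 21 snoRNAs had 2 lower and 0 higher in all 3 litters, and litter medians of -0.95, -0.21 and 0.35. Rnu12, the U12 snRNA of the minor spliceosome, was at 66.0, 62.5 and 65.4 CPM in WT and at 30.9, 53.2 and 62.7 CPM in KO, and Rnu5g, a U5 snRNA, was at 39.7, 40.5 and 29.6 CPM in WT and at 16.5, 19.6 and 31.1 CPM in KO. Both were named after their values were seen. Rn7sk, the 7SK RNA that holds back transcription elongation, was at 5055, 3318 and 3237 CPM in WT and 4423, 3989 and 3823 CPM in KO, without a shared direction. KO mouse 1 was also the deepest library with the smallest rRNA-like share, and the part of this in the small RNA values was not tested. Nuclei were pelleted before the input was taken, and the part of nuclear RNA carried over into each lysate was not tested either.

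Rprl3, an RNase P RNA-like gene named after its values were seen, did not follow genotype alone. It was at 5.16 and 6.16 CPM in WT mice 1 and 2, but at 1081 CPM in WT mouse 3 and at 1104, 1233 and 1595 CPM in the KO mice. WT mouse 3 was thus at the level of the KO mice, and the log2 fold change of 5.34 ± 2.97 had an adjusted p of 0.998, against 7.68 (adjusted p = 8.38e-06) without litter 3. The latter fit leaves out the WT mouse that was at the KO level, so its p value is no support. The gene lies at chr8:3803069-3803358 (mm10) and resembles Rpph1, so its counts are uncertain. Rprl2, another such gene, was at 1.03, 0.880 and 12.9 CPM in WT and 11.7, 10.2 and 21.2 CPM in KO, with the same 2 WT mice lowest.

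**Figure D4:**
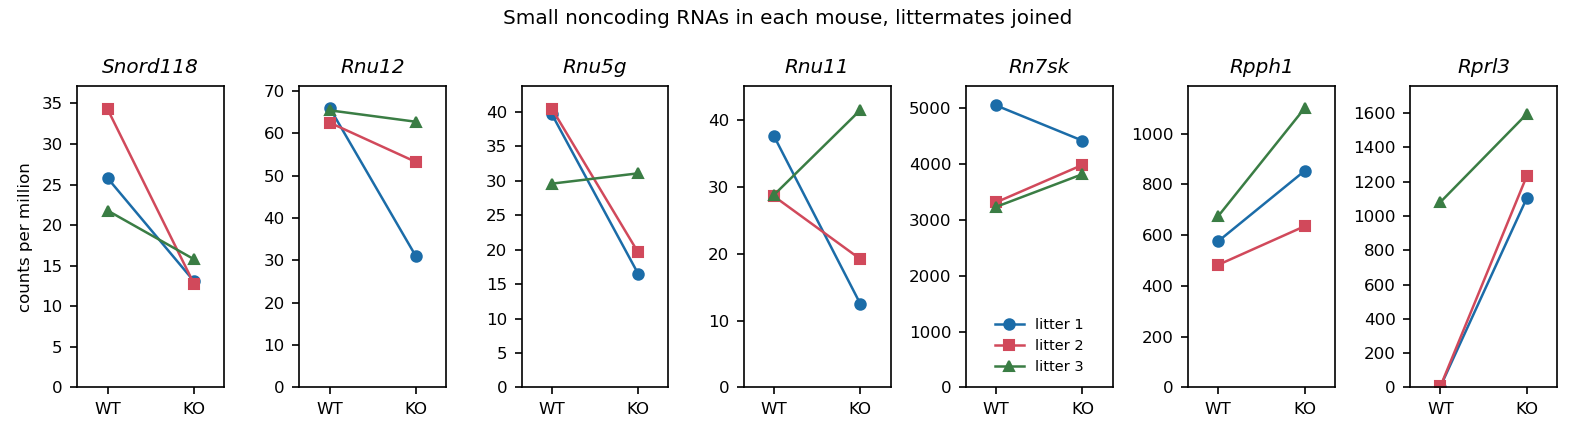
Input levels in CPM (vertical axes) of 7 small noncoding RNAs in each of the 6 mice, with a line joining the littermates of each litter. Snord118 lies at 21.8 to 34.3 in WT and at 12.8 to 15.8 in KO, and Rprl3 is near 0 in 2 WT mice and at 1081 to 1595 in the other 4 mice.

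Other programs of the liver gave smaller counts or counts on both sides. The nuclear-encoded respiratory chain had 12 higher and 9 lower of 76, mitochondrial ribosomal proteins 12 higher and 12 lower of 76, and the urea cycle and amino acid breakdown 6 higher and 0 lower of 49. Glutathione, glucuronosyl and sulfo transferases had 7 higher and 11 lower (28.2%) of 39. P450s outside the Cyp2c family had 5 higher and 10 lower (27.0%) of 37. Bile acid synthesis and transport had 0 higher and 7 lower (22.6%) of 31. Median log2 fold changes of these 3 lists were -0.06, -0.079 and -0.035. Their footprints fell in 11 of 42, 7 of 40 and 4 of 31 genes and rose in 2, 0 and 1, against 2.35% and 1.5% of all genes tested. Cyp4v3, a fatty acid hydroxylase, was at 419, 545 and 507 CPM in WT and 288, 330 and 357 CPM in KO, without overlap (log2 fold change of -0.59, adjusted p = 0.348), and its footprints fell by 0.74 (limma, adjusted p = 0.00177). Aldh1b1, a mitochondrial aldehyde dehydrogenase, was at 49.0, 52.8 and 44 CPM in WT and 62.8, 101 and 81.6 CPM in KO, without overlap, and its footprints rose by 0.50 (limma, adjusted p = 0.0377). Lrtm1, a membrane protein with leucine-rich repeats, was at 2.06, 7.92 and 1.11 CPM in WT and 6.73, 30.2 and 7.22 CPM in KO, so litter 2 was high in both genotypes and each KO liver was above its littermate (log2 fold change of 2.02 ± 0.37, adjusted p = 0.101). Armcx4, an armadillo repeat gene, had a log2 fold change of 1.26 in input, and its footprints rose by 1.72 (limma, adjusted p = 0.0223). Fst, the activin-binding protein follistatin, was at 3.61, 1.76 and 3.33 CPM in WT and 16.7, 7.54 and 4.96 CPM in KO, a log2 fold change of 1.64 ± 0.44 (adjusted p = 0.523). Its WT levels rested on 7, 4 and 9 counts. Footprint log2 fold changes of 0.35 for Fst (limma, adjusted p = 0.597) and 1.2 for Lrtm1 (limma, adjusted p = 0.155) were not called.

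The footprint calls given for single genes rested on the litter block. Of 40 such calls among the genes followed here, 8 were kept by limma without the block, which were those of Mettl5, Mup20, Mup16, Mup14, Mup1, Cyp2c67, Ifi27 and Col14a1.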

How the data were processed

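The deposited input table holds raw counts of read pairs per gene. Per the study's methods, the authors depleted rRNA once, used a stranded small-RNA kit, aligned to mm10 with STAR 2.7.3a, kept uniquely mapped reads and counted exons with featureCounts 1.6.0 (the file header names another version). The deposited footprint columns hold normalized signal, whole reads divided by 1 factor per library, which was recovered for 100% of values (4623826 to 9184242 reads), and columns of the authors' own fold changes were not used. Symbols came from GENCODE vM21 (55227 of 55487 IDs matched). After the 18S, mt-Rnr1, mt-Rnr2 and Lars2 rows were removed, counts were filtered with filterByExpr, scaled with TMM and tested with edgeR 4.0.16 (R 4.3.3, robust quasi-likelihood, litter as a block), which left 2 residual degrees of freedom. The labels pair the mice by litter, and littermates' deviations correlated at 0.0178, 0.0876 and 0.0596. Footprints were tested with limma 3.58.1 on log2(value + 1), for genes with a mean of at least 10. P values were adjusted by Benjamini-Hochberg over all genes. Litter differences used CPM plus 0.5. A replicate is 1 mouse, and the precision of each value is limited by its count. Alternatives were DESeq2 1.42.0, other scaling and filters, no block, leaving out each litter and, chosen after seeing the data, dropping further rRNA-like rows, testing whole footprint reads and counting sex-biased genes without Mups. The tests were checked on simulated data. Of 1746 list entries 1732 matched by symbol, 8 by synonym and 6 did not. Genes were named by a rule: Mettl5, Ssb, Trmt112 and Thrsp, called genes, the 12 higher and 12 lower leaning genes with the smallest p, 6 and 6 outside the normalized table, the 4 members of a list with the smallest p, any member of lists of up to 13 genes, the 15 most abundant genes and cell markers. Others are marked where named, and some genes are not reported here. Members and lists were chosen with earlier results of these data known.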

Additional observations from a re-analysis of the deposited data

How the results depend on the processing

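The 2 genes called in input with litter as a block became 0 without the replicate block, 0 with non-robust dispersions, 0 among genes with a mean of at least 50 counts and 66 without a count filter (32 higher, 34 lower), and 4 to 29 when a litter was left out (9 without litter 1, 29 without litter 2, 26 of them higher, and 4 without litter 3). Mup20 had adjusted p values of 0.802, 0.189 and 0.0634 in the first 3 of these fits and Mbd1 of 0.999, 0.189 and 0.157, and the unpaired footprint test gave Mbd1 an adjusted p of 0.141. Genes leaning one way in all 3 litters numbered 665 lower and 726 higher among the 5709 genes with a mean of at least 50 counts, where fewer genes were tested. Signs changed for Ssb (-0.12 to 0.18 when a litter was left out, the lowest without litter 2) and Thrsp (0.0016 without the block, and -0.26 to 0.13 when a litter was left out, the highest without litter 3), and the cause was not tested. Of 1346 alternative values of 169 results, 1243 kept direction and side of the threshold, 42 lost the threshold, 46 passed it, 12 moved and 3 changed sign. Of 40 footprint calls among the genes examined, 8 held without the block and 37 with edgeR on whole reads, where Plekhb1, Cyp2d9 and Hspa5 missed the threshold. With at most 4745069 kept counts, genes at a few CPM rest on few reads, and with 3 mice a group small shifts are not detectable.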

Other observations

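The list of gluconeogenesis and glucose handling as a whole was at the background, with 4 of 41 tested genes higher (9.76%) and 5 lower (12.2%) in KO in all 3 litters and a median log2 fold change of 0.009. The values of 3 of the 4 members with the smallest p are given with no reading of the list. Irs2, which passes on the insulin signal, was at 27.8, 26.4 and 58.4 CPM in WT and 118, 45.6 and 89.8 CPM in KO, a log2 fold change of 1.15, and its footprints rose by 1.41 (limma, adjusted p = 0.000122). Pfkfb3, an activator of glycolysis, was at 19.1, 86.7 and 56.2 CPM in WT and 13.6, 23.8 and 12.6 CPM in KO. Its log2 fold change was -1.53 with an adjusted p of 0.560 by edgeR. Without litter 1, the litter with the smallest difference, it was -1.98 (adjusted p = 0.00103). Leaving that litter out favoured the call, which adds no support for a difference by genotype. G6pc, the last step of glucose release, was at 589, 467 and 1101 CPM in WT and 1255, 743 and 1195 CPM in KO. Each of the 3 genes kept its direction in all litters.

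Some genes known for a daily rhythm or a response to fasting differed widely between litters. Among WT mice the highest level was 25.3-fold the lowest for Cyp4a14, a fatty acid hydroxylase, and 13.1-fold for Dbp, a clock output factor, against 1.46-fold for Alb and 1.31-fold for Mup20. Cyp4a14 was at 159, 17.6 and 6.29 CPM in WT and 194, 46.8 and 17.1 CPM in KO, and Dbp was at 6.70, 24.2 and 1.85 CPM in WT and 2.50, 13.6 and 0 CPM in KO. Littermates lay on the same side in these genes, but not in all genes with a wide WT range. Bcl6, with a WT range of 7.93-fold, was at 9.8, 17.2 and 77.7 CPM in WT and 11.7, 64.1 and 87 CPM in KO. Angptl8 was at 38.7, 8.8 and 6.66 CPM in WT and 5, 7.17 and 5.41 CPM in KO, so litter 1 was high in WT alone.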
